A study of Mus musculus with 20 samples.

Results

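Natural killer (NK) cells and CD8 T cells, the innate and the adaptive cytotoxic lymphocytes, were compared in sorted populations of C57BL/6 mice. The comparison used 4 of 20 expression arrays, chosen by their sample titles: 2 arrays of NK1.1+ NK cells against 2 arrays of CD8(+) T lymphocytes. A further 2 arrays of Mac-1(+) monocytes/macrophages served to mark genes that were also high in myeloid cells, and 2 arrays of NKT cells, sorted for CD3ε and NK1.1 together, are given beside some results. Each array was an Affymetrix Mouse Genome 430 2.0 array hybridised with RNA from 3000 sorted cells, amplified in 2 cycles, and the labels call the arrays of a population biological replicates. The labels name neither the animals behind each replicate nor their age, sex or tissue, and of the sorts they name the surface markers alone. The p-values therefore set the difference between populations against the spread between replicate arrays alone. That spread came from a fit of all 20 arrays, so it rests on the other populations as well as the 4 compared arrays. All groups share the C57BL/6 background, and no treatment is named for any of them. The arrays are called NK, CD8T, Mac-1(+) and NKT below.

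NK cells and CD8 T cells kill with the same machinery, granules that hold perforin and granzymes, but they find their targets differently. CD8 T cells use a rearranged T cell receptor, carried by the CD3 chains and helped by the coreceptor CD8, which recognises a peptide on an MHC class I molecule. NK cells rearrange no antigen receptor and weigh activating receptors, which signal through adaptors such as DAP12 and the Fc receptor gamma chain, against inhibitory receptors of the Ly49 and NKG2 families that bind MHC class I. Resting CD8 T cells circulate through lymph nodes and depend on interleukin 7, whereas NK cells depend on interleukin 15 and are ready to kill without priming.

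The markers of both populations were where the labels put them. Gzma, which encodes granzyme A, had intensities of 6563 and 6297 in the NK arrays, 133 and 204 in the CD8T arrays and 4.08 and 22.1 in the Mac-1(+) arrays (log2 difference 5.23 ± 0.41, adjusted p 1.76e-08). Ncr1, which encodes the NK receptor NKp46, stood at 585 and 737 in the NK arrays, 7.86 and 12.2 in the CD8T arrays and 14.2 and 16.0 in the Mac-1(+) arrays (log2 difference 5.32 ± 0.50, adjusted p 1.79e-07). Cd8b1, the beta chain of CD8, had 12.1 and 5.18 in the NK arrays, against 2242 and 2086 in the CD8T arrays (log2 difference -7.18 ± 0.55, adjusted p 1.16e-08). For Cd3e, a CD3 chain of the T cell receptor complex, the values were 10.6 and 41.3 in the NK arrays and 744 and 411 in the CD8T arrays (log2 difference -4.28 ± 0.49, adjusted p 2.39e-06). None of these markers overlapped between the NK and CD8T arrays, where 26.2% of all tested genes did not overlap with NK above and 35.8% with CD8T above. A log2 difference here is NK minus CD8T on the log2(intensity + 6.75) scale with its standard error, and the adjusted p is limma's, adjusted by Benjamini-Hochberg over all genes tested. Klrb1c, the gene of NK1.1 itself, was not analysed here.

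The NK arrays also carried signal of genes known from other cell types. Of 25 measured monocyte or macrophage genes, 22 were called higher in the NK than in the CD8T arrays and 0 lower, where 9.45% of all tested genes were called higher in NK and 5.92% lower, and 16 of the 22 were also high in the Mac-1(+) arrays. The summed intensity of that list was 52670 and 45110 in the NK arrays, 1248 and 1334 in the CD8T arrays and 37408 and 41996 in the Mac-1(+) arrays. Gene by gene, NK was called above Mac-1(+) in 7 of the 25 and below it in 1, and 17 were not called, so the higher sum rests on some of the genes. Csf1r, the receptor for the macrophage growth factor CSF1, had 7004 and 5725 in the NK arrays, 60.4 and 24.7 in the CD8T arrays and 3737 and 5948 in the Mac-1(+) arrays. Adgre1, which encodes the macrophage antigen F4/80, had 1481 and 1368 in the NK arrays, 24.0 and 37.2 in the CD8T arrays and 221 and 386 in the Mac-1(+) arrays. Of 15 neutrophil genes 12 were called higher in NK and 0 lower, with list sums of 22121 and 17115 in the NK arrays, 239 and 201 in the CD8T arrays and 111476 and 93406 in the Mac-1(+) arrays. The sorted neutrophils summed to 133993 and 113705, so the Mac-1(+) arrays carried neutrophil genes near that level too. Among these, Elane and Cxcr2 were at 31.6 and 17.9 and at 3.28 and 1.85 in the NK arrays, near their CD8T values of 19.7 and 17.6 and of 4.95 and 5.03. Of 15 dendritic cell and MHC class II genes 8 were higher and 1 lower, with sums of 19596 and 14536 in the NK arrays, 1698 and 1591 in the CD8T arrays and 7849 and 6161 in the Mac-1(+) arrays. With only probe sets whose names mark no shared transcripts, 4 of 11 such genes were higher.

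Genes of other lineages had lower sums. Of 14 B cell genes 6 were called higher in NK and 0 lower, and the list summed to 1424 and 1724 in the NK arrays, 817 and 896 in the CD8T arrays and 41895 and 37379 in the sorted B cells. The B cell count was 2 in a test against a log2 difference of 1. Over the other alternatives that left out no single array it ran from 4 to 6. Of 11 erythroid genes 4 were higher and 1 lower, with sums of 1210 and 1818 in the NK arrays, 508 and 464 in the CD8T arrays and 74540 and 59364 in the sorted erythroblasts. The 4 erythroid calls fell to 1 without NK replicate 2 or CD8T replicate 2 and to 2 without CD8T replicate 1. Plasma cell genes were higher in 3 of 6, basophil or mast cell genes in 2 of 8 and platelet genes in 1 of 7, with 0 lower in each, beside 9.45% higher over all tested genes, so the platelet count is near that share. The plasma cell count fell to 1 without NK replicate 2 or CD8T replicate 1. The basophil or mast cell count fell to 0 without NK replicate 2 or CD8T replicate 1, and to 1 without NK replicate 1 or CD8T replicate 2. The source of this signal and its part in the results below were not tested. In pooled RNA, fewer cells of a type and less RNA per cell cannot be told apart. Mac-1(+) values are therefore given beside most NK-higher genes described, and genes low in the Mac-1(+) arrays are given on their own.

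**Figure D1:**
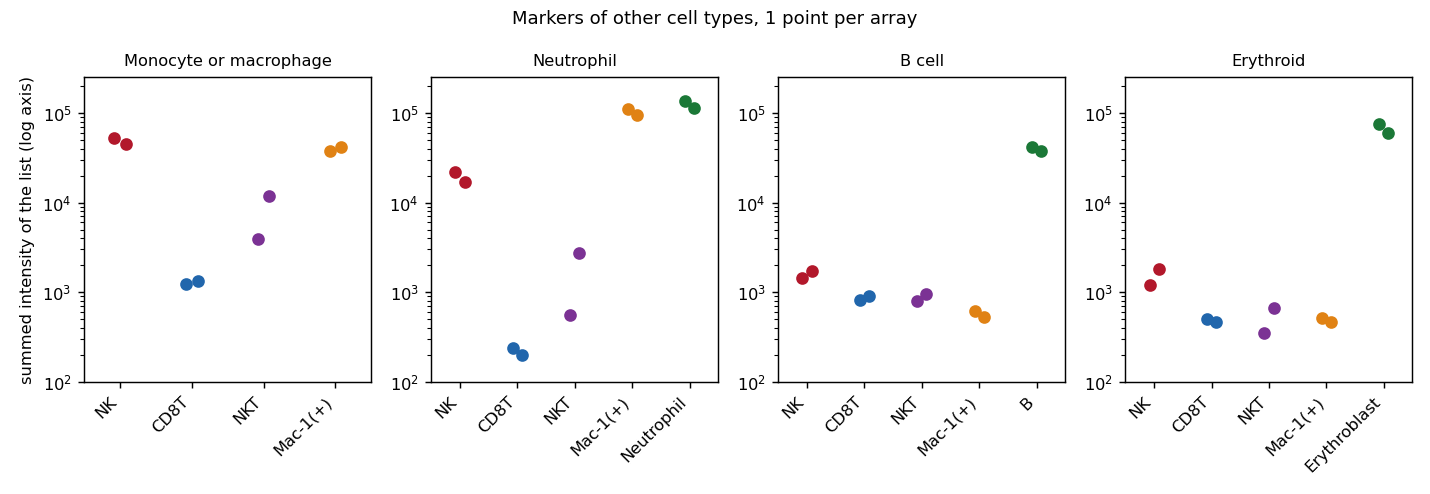
Summed probe set intensity (log axis) of the monocyte or macrophage, neutrophil, B cell and erythroid gene lists, 1 point per array, in NK, CD8T, NKT and Mac-1(+) arrays and, at the right of the last 3 panels, in the population sorted for that lineage. The NK arrays summed to 52670 and 45110 for the monocyte or macrophage list, above the Mac-1(+) arrays, and to 1424 and 1724 for the B cell list, far below the sorted B cells.

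Measures of array quality were in a like range in both populations except for the control of RNA integrity. The median intensity was 22.1 and 23.3 in the NK arrays and 24.9 and 22.4 in the CD8T arrays. For the Gapdh controls, signal at the 3′ end over signal at the 5′ end, which is higher where amplified RNA is shorter, was 3.73 and 3.47 in the NK arrays and 5.71 and 4.94 in the CD8T arrays, so the groups did not overlap. The same ratio for Actb was 1.84 and 1.68 in the NK arrays, against 2.61 and 1.98 in the CD8T arrays. Its part in the results was not tested.

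Promoter sequences of marker genes show what the letters around the start sites hold. The 4 genes are the NK markers Ncr1 and Gzma, the T cell marker Cd3e and the myeloid marker Lyz2, the last as the gene class that the NK arrays also carried. Each sequence runs 5′ to 3′ from 250 bases before to 50 bases after the transcription start, from RefSeq on GRCm38.p6, and capitals mark the letters TGTGGT on either strand (ACCACA as printed), the core that Runx factors bind.
Ncr1, chr7:4337465-4337764, plus strand: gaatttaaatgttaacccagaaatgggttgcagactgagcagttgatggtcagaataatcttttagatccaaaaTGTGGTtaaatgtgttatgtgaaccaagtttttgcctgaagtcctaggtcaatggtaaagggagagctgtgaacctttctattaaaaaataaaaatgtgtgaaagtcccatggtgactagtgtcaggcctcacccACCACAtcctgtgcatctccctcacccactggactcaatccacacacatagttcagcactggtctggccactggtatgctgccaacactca
Gzma, chr13:113100932-113101231, minus strand: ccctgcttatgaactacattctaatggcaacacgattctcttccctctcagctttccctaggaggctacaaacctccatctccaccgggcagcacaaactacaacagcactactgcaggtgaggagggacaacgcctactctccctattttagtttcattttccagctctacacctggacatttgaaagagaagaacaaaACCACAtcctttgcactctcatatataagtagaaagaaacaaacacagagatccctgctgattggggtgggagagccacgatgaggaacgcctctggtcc
Cd3e, chr9:45009562-45009861, minus strand: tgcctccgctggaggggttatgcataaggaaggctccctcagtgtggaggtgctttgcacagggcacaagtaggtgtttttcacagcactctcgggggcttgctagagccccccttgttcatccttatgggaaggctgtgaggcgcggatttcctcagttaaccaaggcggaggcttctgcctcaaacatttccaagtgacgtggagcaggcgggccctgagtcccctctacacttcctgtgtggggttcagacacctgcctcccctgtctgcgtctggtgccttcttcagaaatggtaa
Lyz2, chr10:117282223-117282522, minus strand: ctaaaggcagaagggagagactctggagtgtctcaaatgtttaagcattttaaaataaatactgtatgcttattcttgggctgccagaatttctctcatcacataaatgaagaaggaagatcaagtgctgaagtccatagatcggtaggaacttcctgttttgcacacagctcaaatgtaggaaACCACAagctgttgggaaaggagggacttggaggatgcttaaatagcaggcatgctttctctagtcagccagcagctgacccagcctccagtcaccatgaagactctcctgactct
Counted from 1 at the 5′ end, the Ncr1 window held 2 matches, at positions 75 and 210, Gzma held 1 at position 201, Lyz2 held 1 at position 185 and Cd3e held 0. The other motifs searched on both strands, GGTGTGA for T-box factors, GAGGAAG for PU.1 and CTTTGAT for TCF and LEF factors, had 0 matches in these 4 windows, and no 2 of the motifs shared bases here. A match is a run of letters and not a shown binding site, and no match says only that these letters are not in this window.

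Over the whole array, 14044 genes were tested and 2159 of them (15.4%) were called, at an adjusted p under 0.05 with a log2 difference of at least 1. They were 1327 genes higher in NK (9.45% of those tested) and 832 lower in NK (5.92%), and the median log2 difference of all tested genes was -0.11. Among the genes called higher in NK the median difference was 2.03, and among those called lower it was -1.46. The largest differences ran to 10.05 upwards, for the lysozyme gene Lyz1, and to -7.18 downwards, for Cd8b1. The Lyz1 value depends on its probe set, and was 2.05 with only probe sets whose names mark no shared transcripts.

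Many NK-higher genes were also high in the Mac-1(+) arrays. A gene was marked when both Mac-1(+) arrays were at an intensity of 100 or above, the trimmed mean of every array, and Mac-1(+) was called higher than CD8T in the same model, as 14.4% of all tested genes were. Of the 1327 NK-higher genes 710 (53.5%) were marked, where 1400 of all 14044 genes (9.97%) were. Both comparisons use the CD8T arrays, and a gene low in CD8T meets both more easily, so nothing is read from the difference between these shares. The marked share was 45.3% with the probe sets of a gene averaged and 33.1% with the mark at the 90th percentile of all values. The level of the lower Mac-1(+) array was 102 in Gna12, 102 in Gpr35 and 102.0 in Sh3bp2, just inside the mark, and 99.8 in P2ry6, 99.4 in H2-DMb2 and 98.8 in Arhgap21, just outside it. Of the 710 marked genes, NK was called above Mac-1(+) in 66 and below it in 232, calls that 10.8% and 8.41% of all tested genes had, and 412 were not called between them. Of the 617 NK-higher genes without the mark, 284 were also called above Mac-1(+), 325 were not called and 8 were called below it. A gene high in CD8T can hardly meet the mark, and 9 of the 832 NK-lower genes (1.08%) did.

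**Figure D2:**
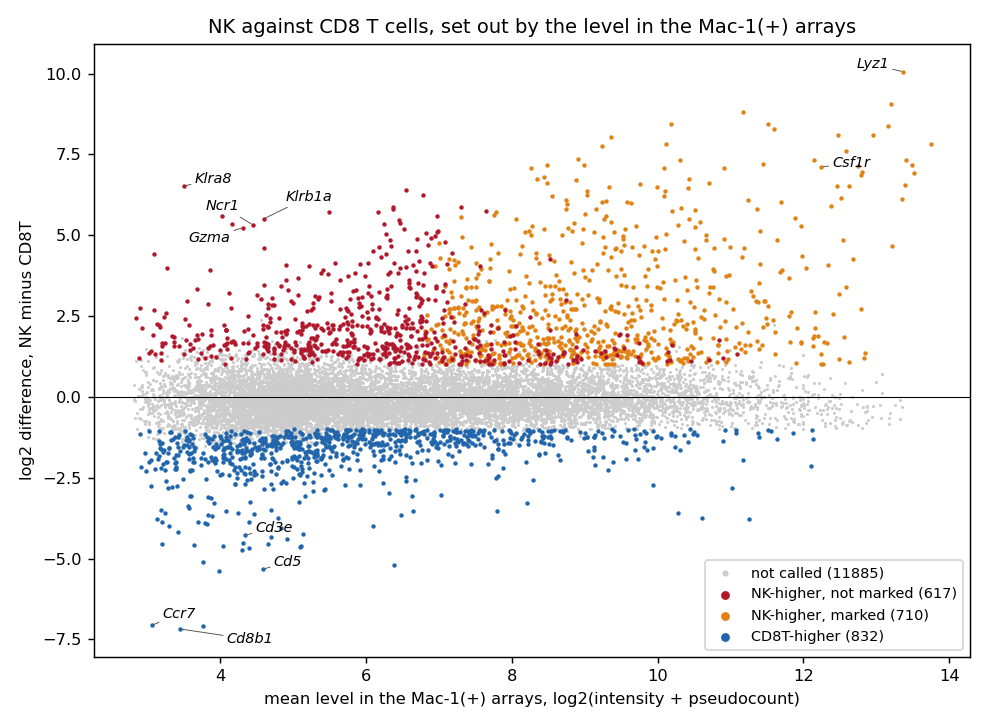
Each point is 1 of the 14044 genes tested, with its mean level in the Mac-1(+) arrays on the horizontal axis (log2 of intensity plus pseudocount) and its log2 difference, NK minus CD8T, on the vertical axis; colours give the class of the call. The 710 marked NK-higher genes run to the top right, where Lyz1 lies, while Klra8, Ncr1, Klrb1a and Gzma are high in NK at the left, where the Mac-1(+) level is low.

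A smaller set of NK-higher genes was low in the Mac-1(+) arrays. With both Mac-1(+) arrays below 22.9, the median of all values, 99 genes were higher in NK (3.96% of 2502 such genes) and 250 were lower (9.99%). This cut was chosen after the values were seen. Of the 99, 70 were also called above Mac-1(+), a call that 10.8% of all tested genes had. The cut itself keeps the Mac-1(+) values low and so favours this call, and nothing is read from the count. The 15 with the largest differences were Klra8, Klrb1b, Klrb1a, Vegfc, Ncr1, Gzma, Ms4a1, Iglv1, Phactr3, Klhl30, Igkv8-30, Fcmr, Gpr31b, Gzmb and Tmsb15a, so they hold NK receptors and granzymes but also the B cell genes Ms4a1 (CD20), Fcmr (an IgM receptor) and the immunoglobulin segments Iglv1 and Igkv8-30. Ms4a1 had 202 and 371 in the NK arrays, 9.12 and 1.56 in the CD8T arrays and 14.0 and 21.2 in the Mac-1(+) arrays. Vegfc, a growth factor of lymphatic vessels, had 276 and 286 in the NK arrays, 0.492 and 0.283 in the CD8T arrays and 8.52 and 13.9 in the Mac-1(+) arrays (log2 difference 5.33 ± 0.40, adjusted p 9.47e-09). Both NK arrays were high and all the others named here were low, which the choice of this set favours. In promoters, TGTGGT was found in 20 of the 74 genes of this set that had a sequence (27.0%), in 13.7% of NK-higher genes without the mark, in 14.0% of marked ones, in 14.3% of NK-lower genes, in 13.2% of all tested genes and in 16.9% of all promoters in the table. The T-box letters were in 5 (6.76%) of the same 74 promoters, against 3.57% of those of all tested genes. They were in 4.14% for NK-higher genes without the mark, 1.92% for marked ones and 4.62% for NK-lower genes. The PU.1 letters were in 12.2% of the 74, against 13.6% for all tested genes. For the TCF and LEF letters the shares were 2.7% and 2.58%. These shares were not tested, and the set was chosen after its values were seen.

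Among the NK-higher genes low in the Mac-1(+) arrays, NK receptors had the largest differences, and Cd244a, at intermediate Mac-1(+) values, is given beside them. Klra8 encodes Ly49H, an activating receptor known for binding a cytomegalovirus protein. It had 2941 and 3236 in the NK arrays, 20.3 and 35.5 in the CD8T arrays and 2.11 and 7.06 in the Mac-1(+) arrays (log2 difference 6.52 ± 0.56, adjusted p 5.26e-08). Klrb1a, of the NKR-P1 receptors that also include NK1.1, had 842 and 919 in the NK arrays, 10.01 and 15.8 in the CD8T arrays and 17.5 and 17.6 in the Mac-1(+) arrays (log2 difference 5.51 ± 0.42, adjusted p 9.54e-09). Its neighbour Klrb1b, an inhibitory member, had 407 and 386 in the NK arrays, 2.69 and 0.610 in the CD8T arrays and 1.27 and 17.7 in the Mac-1(+) arrays (log2 difference 5.59 ± 0.53, adjusted p 1.98e-07). Cd244a, which encodes the receptor 2B4, had 966 and 1066 in the NK arrays, 27.0 and 53.4 in the CD8T arrays and 51.6 and 142 in the Mac-1(+) arrays (log2 difference 4.50 ± 0.58, adjusted p 8.6e-06). In each of these genes the NK arrays lay far above the CD8T and the Mac-1(+) arrays. For Klra8, Klrb1a and Klrb1b this follows from their choice. The rule that named them asks for NK and CD8T arrays without overlap and for low Mac-1(+) values. Against CD8T alone, 26.2% of all tested genes had NK above without overlap. Genes of these families resemble each other, and the probe sets of Klra8 and Klrb1b, and those of Gzma, Cd8b1, Prf1 and Cd36, are of kinds that can bind several transcripts, so their signal cannot be assigned to 1 gene with certainty.

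Of 18 activating receptors and adaptors, 12 were higher in NK and 4 lower, with a median log2 difference of 4.09 against -0.11 for all tested genes. The counts of this list and of those below stand beside 9.45% called higher in NK and 5.92% lower among all tested genes. The mark fell on 7 of the 12, among them signalling molecules. Tyrobp, which encodes DAP12, had 5894 and 4850.1 in the NK arrays, 41.8 and 62.1 in the CD8T arrays and 5967 and 5275 in the Mac-1(+) arrays (log2 difference 6.53 ± 0.44, adjusted p 2.14e-09). Fcer1g, the Fc receptor gamma chain, had 3952 and 2949 in the NK arrays, 93.3 and 88.7 in the CD8T arrays and 2731 and 2654 in the Mac-1(+) arrays (log2 difference 5.13 ± 0.31, adjusted p 6.55e-10). Syk, a kinase that binds both adaptors, had 1039 and 1065 in the NK arrays, 17.7 and 22.0 in the CD8T arrays and 1392 and 1073 in the Mac-1(+) arrays (log2 difference 5.32 ± 0.57, adjusted p 8.63e-07). NK and Mac-1(+) were not called apart for any of the 3, so NK cells and myeloid cells, which are both known to use these molecules, cannot be told apart by them. The Fc receptor gene Fcgr3 (4.82), the phospholipase gene Plcg2 (3.88) and Vav3 (2.54) carried the mark too. The adaptor gene Hcst, which encodes the DAP10 used by NKG2D, was not called, at 368 and 389 in the NK arrays and 785 and 654 in the CD8T arrays (log2 difference -0.91 ± 0.22, adjusted p 0.00453), except without CD8T replicate 2 (-1.04). Klrb1f, another NKR-P1 gene, was marked but was called above Mac-1(+), at 1158 and 1005 in the NK arrays, 26.3 and 85.4 in the CD8T arrays and 124 and 122 in the Mac-1(+) arrays.

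Slamf6, a receptor of the SLAM family, was the NK-lower member with the largest difference. It had 49.5 and 62.5 in the NK arrays, against 359 and 294 in the CD8T arrays (log2 difference -2.41 ± 0.42, adjusted p 0.000256). The other NK-lower calls, Cd226 (-1.60), Crtam (-1.35) and Sh2d1a (-1.16), had adjusted p of 0.036, 0.0426 and 0.0421. The 4 NK-lower calls fell to 1 without NK replicate 1 or CD8T replicate 1 and to 2 without NK replicate 2 or CD8T replicate 2. Klrk1, which encodes NKG2D, was called at 1.47 ± 0.38, but not without CD8T replicate 1 (1.03, adjusted p 0.147) or NK replicate 1 (1.40, adjusted p 0.0646).

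Ly49, NKG2 and related receptors followed with smaller differences apart from Klra8. Of 13 measured members 8 were higher in NK and 1 lower, with a median of 1.19, and 1 of the 8 carried the mark. In a test against a log2 difference of 1, 3 were called higher: Klra8, Klra2 and Klra17. Over the alternative settings Klra2 ran from 1.96 to 4.38 and Klra17 from 1.99 to 3.22. The count of 8 fell to 4 without NK replicate 2 or CD8T replicate 1. Klrd1, which encodes CD94, the partner chain of the NKG2 receptors, had 3734 and 4079 in the NK arrays and 4015 and 3917 in the CD8T arrays (log2 difference -0.02 ± 0.46, adjusted p 0.983). Its NK and CD8T values overlapped, and both lay far above the Mac-1(+) values of 72.0 and 69.5. Klre1, an inhibitory or activating receptor depending on its partner, had 1758 and 2335 in the NK arrays, against 441 and 965 in the CD8T arrays (log2 difference 1.62 ± 0.42, adjusted p 0.00809). Klrc1, which encodes the inhibitory chain NKG2A, had 1076 and 1303 in the NK arrays, against 335 and 770.2 in the CD8T arrays (log2 difference 1.21 ± 0.38, adjusted p 0.0266). Klra7, which encodes Ly49G2, had 1052 and 1281 in the NK arrays, against 391 and 712 in the CD8T arrays (log2 difference 1.13 ± 0.35, adjusted p 0.0246). In all 3 the higher CD8T value was that of replicate 2, and without replicate 1 of CD8T the differences were 1.06 for Klre1, 0.62 for Klrc1 and 0.70 for Klra7, with none of them called. Without NK replicate 2 none was called either, at 1.42 for Klre1, 1.07 for Klrc1 and 0.99 for Klra7. Without NK replicate 1 the calls of Klrc1 (1.35, adjusted p 0.0767) and Klra7 (1.27, adjusted p 0.0693) were lost while that of Klre1 was not. The NKT arrays were higher still, with 1864 and 1972 for Klrc1 and 2103 and 1816 for Klra7. Cd96, a receptor for nectin-like ligands, was the NK-lower member, at 253 and 275 in the NK arrays and 924 and 890.1 in the CD8T arrays (log2 difference -1.76 ± 0.30, adjusted p 0.000187).

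**Figure D3:**
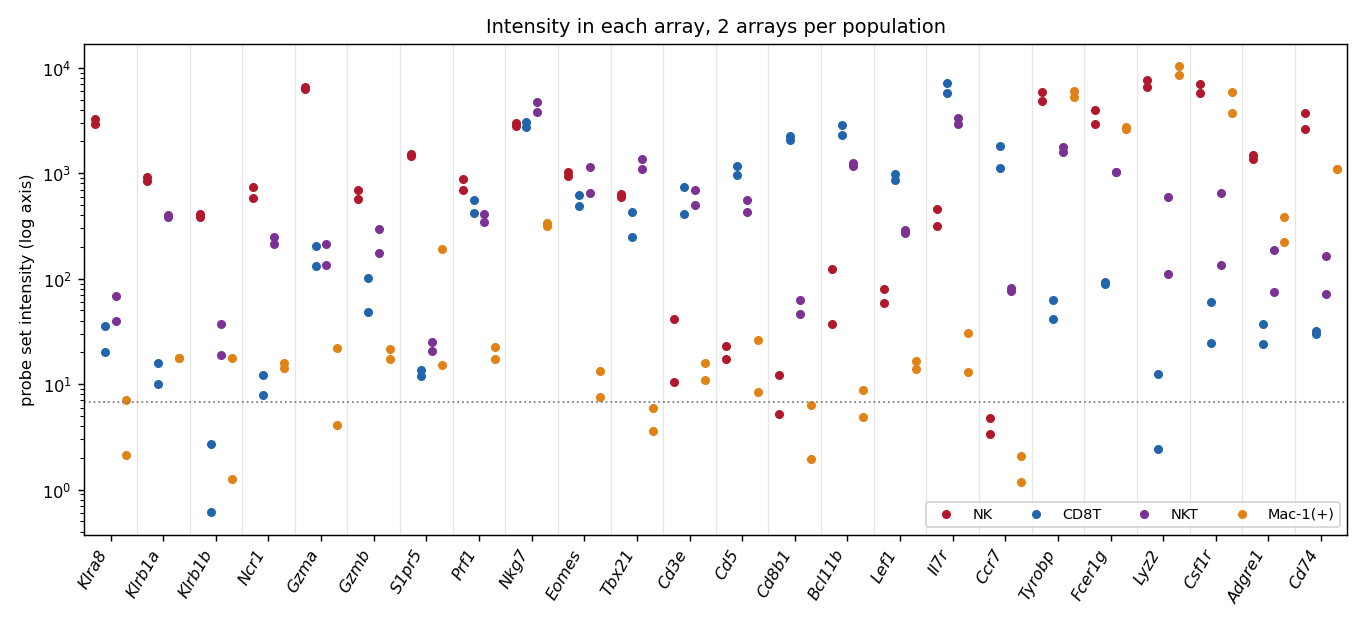
Probe set intensity (log axis) of 24 genes in each array, 2 points per population for NK, CD8T, NKT and Mac-1(+); the dotted line is the pseudocount of 6.75. Klra8, Ncr1, Gzma and Gzmb are high in NK and low in Mac-1(+), Prf1 and Nkg7 are close together in NK and CD8T, the T cell genes from Cd3e to Ccr7 are low in NK, and the genes from Tyrobp on are high in NK and in Mac-1(+).

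The granule genes did not move as a group. Of 21 measured members 7 were higher in NK, 2 were lower and 12 were not called, with a median of 0.61. Over all tested genes, 9.45% were higher and 5.92% lower. Gzmb, which encodes granzyme B, had 574 and 688 in the NK arrays, 47.9 and 101 in the CD8T arrays and 21.6 and 17.4 in the Mac-1(+) arrays (log2 difference 3.05 ± 0.52, adjusted p 0.000193). Both NK values lay above both CD8T values, as for Gzma and for 26.2% of all tested genes. The rule that named both among the genes low in Mac-1(+) asks for this. Stx11, a syntaxin needed for granule release, was marked, with 658 and 661 in the NK arrays, 44.3 and 72.6 in the CD8T arrays and 1554 and 1411 in the Mac-1(+) arrays. The lysosomal membrane protein gene Lamp1 was higher by 1.32 ± 0.15 and, without meeting the mark, had 1873 and 2457 in the Mac-1(+) arrays.

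Among the granule and chemokine genes not called were several known from both cell types, and 4 of them are given here, chosen after their values were seen. Prf1, which encodes perforin, had 690.4 and 889.7 in the NK arrays and 421 and 557 in the CD8T arrays (log2 difference 0.69 ± 0.32, adjusted p 0.138). Nkg7, a granule membrane protein, had 3014 and 2820.0 in the NK arrays and 2743 and 3029 in the CD8T arrays (log2 difference 0.02 ± 0.45, adjusted p 0.989). Ctsw, which encodes cathepsin W, had 2196 and 2124 in the NK arrays and 2791 and 3041 in the CD8T arrays (log2 difference -0.43 ± 0.21, adjusted p 0.163). Ccl5, a chemokine stored in cytotoxic cells, had 5089.7 and 4458 in the NK arrays and 4308 and 5439 in the CD8T arrays (log2 difference -0.02 ± 0.29, adjusted p 0.971). None of the 4 was called, which does not show that the levels were equal, and all 4 were below 40 in the Mac-1(+) arrays except Nkg7, at 335 and 317.

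The remaining granule calls were fragile. Fasl, the death ligand, had 535 and 599 in the NK arrays, against 209 and 285 in the CD8T arrays (log2 difference 1.19 ± 0.36, adjusted p 0.0204), and lost its call without CD8T replicate 1 (0.97, adjusted p 0.173), NK replicate 1 (1.27, adjusted p 0.0747) or NK replicate 2 (1.11, adjusted p 0.119). The granzyme inhibitor gene Serpinb9 (1.23 ± 0.42) lost its call without any 1 of the 4 arrays. On the NK-lower side, Gzmm had 69.4 and 71.6 in the NK arrays and 145 and 294 in the CD8T arrays (log2 difference -1.47 ± 0.35, adjusted p 0.0047), and Gzmk was at -1.48 ± 0.50. Gzmk lost its call without NK replicate 1 (-0.83, adjusted p 0.417), and both lost theirs without CD8T replicate 2, at -0.97 for Gzmm and -0.86 for Gzmk. The 7 NK-higher granule calls fell to 4 without NK replicate 1, NK replicate 2 or CD8T replicate 1, and to 4 with a pseudocount at the 5th percentile of all values.

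Transcription factors of the NK lineage were higher in NK or not called. Of 14 measured members 7 were higher and 0 lower, with a median of 1.11, and 4 of the 7 carried the mark. Zeb2, which acts late in NK maturation, had 1749 and 1517 in the NK arrays, 17.5 and 19.3 in the CD8T arrays and 251 and 942 in the Mac-1(+) arrays (log2 difference 6.02 ± 0.52, adjusted p 5.82e-08). The interferon regulatory factor gene Irf8 had 1625 and 1416 in the NK arrays, 49.3 and 79.8 in the CD8T arrays and 165 and 468 in the Mac-1(+) arrays (log2 difference 4.45 ± 0.45, adjusted p 5.02e-07). Both were marked and yet called above Mac-1(+). Id2, an inhibitor of E proteins needed for innate lymphocytes, had 3494 and 3921 in the NK arrays, 1116 and 1335 in the CD8T arrays and 1122 and 1203 in the Mac-1(+) arrays (log2 difference 1.60 ± 0.36, adjusted p 0.0028). The Id2 difference was 0.95 with its probe sets averaged and 0.41 (adjusted p 0.565) with only probe sets whose names mark no shared transcripts, and it was called in neither. Prdm1, which encodes Blimp-1, was higher by 1.31 ± 0.33. The T-box factors that direct NK and effector CD8 T cells were not called. Eomes had 946 and 1018 in the NK arrays and 485 and 616 in the CD8T arrays (log2 difference 0.84 ± 0.36, adjusted p 0.11). Tbx21, which encodes T-bet, had 637 and 598 in the NK arrays and 251 and 425 in the CD8T arrays (log2 difference 0.90 ± 0.59, adjusted p 0.32). In both genes the NK arrays lay above the CD8T arrays without overlap, like the 26.2% of all tested genes given above.

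The leading NK-higher genes without the mark held NK receptors beside genes with some signal in the Mac-1(+) arrays. The 12 largest NK-higher differences without the mark were Klra8, Cd36, S1pr5, Fabp4, Dusp16, Nupr1, Ifi207, Pparg, Mef2c, Klrb1b, Klrb1a and Ryr1. S1pr5, the receptor that lets NK cells leave bone marrow and lymph nodes, had 1465 and 1514 in the NK arrays, 13.7 and 11.99 in the CD8T arrays and 15.1 and 192 in the Mac-1(+) arrays (log2 difference 6.26 ± 0.64, adjusted p 4.93e-07). Cd36, a scavenger receptor for lipids, had 523 and 836 in the NK arrays, 1.06 and 1.32 in the CD8T arrays and 38.2 and 136 in the Mac-1(+) arrays (log2 difference 6.40 ± 0.51, adjusted p 1.96e-08). Pparg, a nuclear receptor of lipid metabolism, had 456 and 466 in the NK arrays, 1.69 and 2.79 in the CD8T arrays and 32.2 and 98.3 in the Mac-1(+) arrays (log2 difference 5.70 ± 0.49, adjusted p 6.04e-08). The fatty acid carrier Fabp4, a target of the product of Pparg in fat cells and macrophages, had 883 and 1197 in the NK arrays, 9.48 and 12.3 in the CD8T arrays and 43.6 and 258 in the Mac-1(+) arrays (log2 difference 5.88 ± 0.71, adjusted p 4.2e-06). The Mac-1(+) arrays were uneven in these genes: replicate 1 stood below the level of the mark in all 4, while replicate 2 stood above it in S1pr5, Cd36 and Fabp4. The mark therefore rests on replicate 1 for them, and 790 NK-higher genes were marked without that array. The phosphatase gene Dusp16, the stress gene Nupr1, the muscle and lymphoid factor gene Mef2c and the calcium channel gene Ryr1 had differences from 5.46 to 5.87, and each was called above Mac-1(+). Ifi207, an interferon-inducible gene, was at 453 and 325 in the NK arrays and 76.6 and 312 in the Mac-1(+) arrays and was not called between them.

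The largest NK-higher differences of all belonged to marked genes of phagocytes and antigen presentation. The 10 that lead were Lyz1, Lyz2, Apoe, Clec4a3, H2-Aa, Chil3, Mpeg1, Hp, Cybb and H2-Ab1. Lyz2, one of a pair of similar lysozyme genes whose probe sets may share signal, had 7713 and 6596 in the NK arrays, 12.5 and 2.41 in the CD8T arrays and 10329 and 8516 in the Mac-1(+) arrays (log2 difference 9.07 ± 0.76, adjusted p 3.86e-08). Cybb, a subunit of the phagocyte oxidase, had 3861 and 4265 in the NK arrays, 3.28 and 15.4 in the CD8T arrays and 5937 and 5387 in the Mac-1(+) arrays (log2 difference 8.09 ± 0.46, adjusted p 2.58e-10). NK and Mac-1(+) were alike in being high, and the CD8T arrays were near the floor. Apoe, an apolipoprotein of macrophages, had 6783 and 6000.0 in the NK arrays, 16.0 and 2.26 in the CD8T arrays and 1226 and 3364 in the Mac-1(+) arrays (log2 difference 8.80 ± 0.64, adjusted p 6.31e-09). Clec4a3, a lectin receptor gene of monocytes, had 5001 and 4292 in the NK arrays, 3.26 and 11.1 in the CD8T arrays and 595 and 1712 in the Mac-1(+) arrays, and was called above Mac-1(+) by 2.19. The MHC class II gene H2-Ab1 had 2902 and 1927 in the NK arrays, 2.24 and 2.43 in the CD8T arrays and 689.9 and 606 in the Mac-1(+) arrays, and was called above Mac-1(+) by 1.86. Hp, which encodes haptoglobin, ran the other way and was called below Mac-1(+), with a difference of -1.63. The NKT arrays, sorted for NK1.1 as well, were uneven in this group: Lyz2 had 111 and 589 there, Apoe 120.5 and 750.3 and Csf1r 135 and 647, so replicate 2 was the higher in each.

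The T cell receptor complex marked the CD8T side. Of 15 receptor and coreceptor genes 14 were lower in NK and 0 higher, with a median of -2.78. In the test against a log2 difference of 1, 10 of the 15 were called lower, and Cd8a, the alpha chain of CD8, was not. Cd8a was at -2.45 and ran from -7.21 to -2.00 over the alternatives, the last without NK replicate 1. Cd3d had 295 and 168 in the NK arrays, against 3799 and 3541 in the CD8T arrays (log2 difference -4.00 ± 0.33, adjusted p 3.03e-08). The neighbouring Cd3g had 107 and 109 in the NK arrays, against 1791 and 1872 in the CD8T arrays (log2 difference -4.00 ± 0.43, adjusted p 1.12e-06). Cd5, a brake on receptor signalling, had 17.1 and 23.0 in the NK arrays, against 959 and 1179.9 in the CD8T arrays (log2 difference -5.33 ± 0.36, adjusted p 2.07e-09). Cd6, its relative, had 17.4 and 2.64 in the NK arrays, against 376 and 352 in the CD8T arrays (log2 difference -4.62 ± 0.53, adjusted p 1.98e-06). Every NK value was below every CD8T value in these genes, as in 35.8% of all tested genes. Cd5 and Cd6 are also among the genes named by a rule that asks for this. Cd247, which encodes the zeta chain that also serves NK receptors, differed less, at 171 and 143 in the NK arrays and 942 and 906 in the CD8T arrays (log2 difference -2.51 ± 0.42, adjusted p 0.000157), and was above its Mac-1(+) values of 3.21 and 20.9. Cd4 was the member not called, at 3.99 and 11.7 in the NK arrays and 3.63 and 3.33 in the CD8T arrays. The receptor segments Trav9d-3 (-5.18) and Trav12n-2 (-4.65) were among the 15 largest NK-lower differences, and their signal can come from similar segments. The NKT arrays, which carry CD3ε by their sort, were close to CD8T in Cd3d, at 3480.3 and 3252, but not in Cd8b1, at 62.3 and 46.1.

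Downstream signalling genes were split. Of 18 measured genes 6 were lower in NK and 0 higher, with a median of -0.76. Lat, the scaffold that gathers the signal of the receptor, had 159.9 and 153 in the NK arrays, against 1913 and 1633 in the CD8T arrays (log2 difference -3.44 ± 0.47, adjusted p 1.63e-05). Plcg1, the phospholipase recruited by it, had 56.0 and 30.8 in the NK arrays, against 1007 and 809 in the CD8T arrays (log2 difference -4.23 ± 0.44, adjusted p 6.79e-07). Themis, a regulator known from thymic selection, had 7.76 and 24.4 in the NK arrays, against 556 and 477 in the CD8T arrays (log2 difference -4.62 ± 0.53, adjusted p 2.05e-06). Prkcq, which encodes protein kinase C theta, had 331 and 484 in the NK arrays, against 2187 and 1627 in the CD8T arrays (log2 difference -2.22 ± 0.27, adjusted p 5.67e-06). The phospholipases thus ran in opposite directions, since Plcg2 was higher in NK. The kinases Zap70 (0.78 ± 0.30, adjusted p 0.0692) and Fyn (-0.07 ± 0.38, adjusted p 0.927) and the adaptor Lcp2 (0.36 ± 0.23, adjusted p 0.317), which both cell types use, were not called.

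Genes of naive T cells had the lowest median of the 24 lists, at -3.76, with 9 of 10 lower in NK and 0 higher. Ccr7, the chemokine receptor that brings T cells into lymph nodes, had 4.75 and 3.35 in the NK arrays, against 1824 and 1125 in the CD8T arrays (log2 difference -7.06 ± 0.44, adjusted p 8.37e-10). Dapl1, a gene of quiescent naive T cells, had 0.545 and 2.23 in the NK arrays, against 1229 and 956 in the CD8T arrays (log2 difference -7.07 ± 0.45, adjusted p 9.93e-10). Il7r, the receptor for interleukin 7, had 319 and 455 in the NK arrays, against 7239 and 5715 in the CD8T arrays (log2 difference -4.05 ± 0.40, adjusted p 3.75e-07). Ccr9, a receptor for homing to the gut, had 16.4 and 10.03 in the NK arrays, against 955 and 709 in the CD8T arrays (log2 difference -5.40 ± 0.54, adjusted p 4.08e-07). The NK arrays were at or near the floor for Ccr7, Dapl1 and Ccr9 but kept a signal for Il7r, well above the Mac-1(+) values of 30.4 and 13.2. Klf2, a factor that controls the exit of lymphocytes, was the member not called (log2 difference -0.99 ± 0.86, adjusted p 0.475).

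Among T cell transcription factors 10 of 15 were lower in NK and 1 higher, with a median of -1.5. Bcl11b, which commits progenitors to the T lineage, had 37.3 and 123 in the NK arrays, against 2874 and 2325 in the CD8T arrays (log2 difference -5.10 ± 0.41, adjusted p 2.11e-08). Lef1, a partner of Wnt signalling in T cells, had 59.2 and 79.8 in the NK arrays, against 987 and 860.5 in the CD8T arrays (log2 difference -3.62 ± 0.33, adjusted p 1.43e-07). Satb1, a chromatin organiser of T cells, had 534 and 777 in the NK arrays, against 3027 and 2632 in the CD8T arrays (log2 difference -2.12 ± 0.21, adjusted p 3.28e-07). The NK values were the lower in all 3, as in 35.8% of all tested genes, and the rule that named Bcl11b asks for this. Bach2 (-1.64), Id3 (-1.89) and Myb (-2.01), which restrain effector differentiation or act in progenitors, were lower as well. The NK-higher member was Zbtb7b, which encodes the CD4 lineage factor ThPOK, at 96.2 and 103 in the NK arrays, 6.95 and 21.3 in the CD8T arrays and 107 and 98.2 in the Mac-1(+) arrays (log2 difference 2.44 ± 0.34, adjusted p 2.53e-05). Gata3 (-0.35 ± 0.36, adjusted p 0.551) and Runx1 (0.65 ± 0.25, adjusted p 0.0683) were not called. The rest of the 15 largest NK-lower differences were the ganglioside enzyme gene St8sia1 (-4.75), Als2cl (-4.67), Tdrp (-4.59), the actinin gene Actn2 (-4.55) and Nsg2 (-4.55).

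Homing genes split by direction. Of 19 chemokines and receptors 7 were higher in NK and 6 lower, with a median of 0.10, and 4 of the 7 carried the mark. Ccl6 and Ccl9, both chemokine genes, had larger differences than the receptors below. Over the alternatives they ran from 5.48 to 7.25 for Ccl6 and from 5.44 to 7.80 for Ccl9. Cx3cr1, the fractalkine receptor of mature NK cells and monocytes, had 1860.3 and 2188 in the NK arrays, 34.8 and 72.5 in the CD8T arrays and 259 and 639 in the Mac-1(+) arrays (log2 difference 5.14 ± 0.53, adjusted p 5.4e-07). Ccr2, a receptor for inflammatory chemokines, had 2905 and 2665 in the NK arrays, 103 and 249.7 in the CD8T arrays and 617 and 1411 in the Mac-1(+) arrays (log2 difference 4.06 ± 0.45, adjusted p 1.55e-06). Both were marked, and NK was called above Mac-1(+) in both. S1P receptors ran in opposite directions, since S1pr1 had 61.8 and 89.2 in the NK arrays, against 529 and 470.2 in the CD8T arrays (log2 difference -2.64 ± 0.30, adjusted p 2.08e-06), while S1pr5 was NK-higher. Cxcr6 (-2.28) and Cxcr5 (-2.37) were lower in NK, and Cxcr3, at 1718 and 1519 in the NK arrays and 2120.1 and 3308 in the CD8T arrays, was not called (log2 difference -0.71 ± 0.26, adjusted p 0.0541) except without CD8T replicate 1 (-1.03). The chemokine genes Ccl4 (1.66 ± 0.52) and Xcl1 (1.37 ± 0.47) were called but lost their call without any 1 of the 4 arrays.

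Of 26 cytokines and cytokine receptors 7 were higher in NK and 5 lower, with a median of 0.32, beside 9.45% higher and 5.92% lower over all tested genes. Il10ra, the receptor for interleukin 10, had 669 and 667 in the NK arrays, 91.2 and 142 in the CD8T arrays and 73.1 and 200.1 in the Mac-1(+) arrays (log2 difference 2.48 ± 0.42, adjusted p 0.000176). Il12rb2, a chain of the interleukin 12 receptor, had 31.5 and 40.3 in the NK arrays, 3.37 and 3.24 in the CD8T arrays and 3.66 and 12.1 in the Mac-1(+) arrays (log2 difference 2.08 ± 0.47, adjusted p 0.00265). Tgfbr3, a coreceptor for TGF-beta, had 872 and 1153 in the NK arrays, 252 and 159.6 in the CD8T arrays and 6.53 and 3.69 in the NKT arrays (log2 difference 2.28 ± 0.53, adjusted p 0.00347). Its NKT values were low, and its call was lost without CD8T replicate 2 (1.97, adjusted p 0.0501). Ifng, which encodes interferon gamma, had 108 and 209.7 in the NK arrays, 30.6 and 16.2 in the CD8T arrays and 2.18 and 7.16 in the Mac-1(+) arrays (log2 difference 2.42 ± 0.66, adjusted p 0.0114), and lost its call without NK replicate 2 (1.96, adjusted p 0.123) or CD8T replicate 2 (2.07, adjusted p 0.1). Il2rb, the chain shared by the receptors of interleukins 2 and 15, had 335 and 400.2 in the NK arrays and 235 and 452 in the CD8T arrays, which overlapped (log2 difference 0.16 ± 0.39, adjusted p 0.829). Il21r (-1.62), Il4ra (-1.67), the lymphotoxin genes Lta (-2.02) and Ltb (-1.77) and Il7r were the NK-lower members. With its probe sets averaged, Il4ra was at -0.41 and not called.

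Integrins and other adhesion genes were higher in NK in 7 of 19 and lower in 2, with a median of 0.54, and 4 of the 7 were marked. All tested genes were higher in 9.45% and lower in 5.92%. Itgam, a chain of Mac-1 that mature mouse NK cells are also known to carry, had 131 and 100.4 in the NK arrays, 2.60 and 1.08 in the CD8T arrays and 506 and 405 in the Mac-1(+) arrays (log2 difference 3.83 ± 0.56, adjusted p 3.7e-05). Itgax, which encodes CD11c, had 1145 and 876 in the NK arrays, 58.2 and 57.5 in the CD8T arrays and 139 and 129.5 in the Mac-1(+) arrays (log2 difference 3.96 ± 0.31, adjusted p 1.19e-08). NK was called below Mac-1(+) for Itgam and above it for Itgax. Itgal, the LFA-1 chain used in contact with targets, was higher without the mark, at 1749.8 and 1850.2 in the NK arrays and 589.5 and 689 in the CD8T arrays (log2 difference 1.49 ± 0.20, adjusted p 1.39e-05). Itgae, which encodes the CD103 chain that binds epithelium, had 28.7 and 34.0 in the NK arrays, against 603 and 368 in the CD8T arrays (log2 difference -3.65 ± 0.52, adjusted p 2.84e-05). Cd2, an adhesion receptor of lymphocytes, had 764 and 781 in the NK arrays, against 2813 and 2679 in the CD8T arrays (log2 difference -1.82 ± 0.21, adjusted p 1.98e-06), with 1.51 and 2.85 in the Mac-1(+) arrays.

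Ribosome biogenesis genes were lower in NK in 15 of 22 and higher in 0, with a median of -1.17, but 0 of 22 were called in a test against a log2 difference of 1. Npm1, which encodes nucleophosmin, had 2568 and 2261 in the NK arrays, against 7552 and 6526 in the CD8T arrays (log2 difference -1.54 ± 0.23, adjusted p 4.49e-05). Ncl, which encodes nucleolin, had 898 and 897 in the NK arrays, against 2662 and 2293 in the CD8T arrays (log2 difference -1.45 ± 0.19, adjusted p 7.99e-06), and was at -0.96, short of the call, with its probe sets averaged. Fbl, the methyltransferase fibrillarin, had 864 and 683 in the NK arrays, against 2037 and 1850.2 in the CD8T arrays (log2 difference -1.33 ± 0.30, adjusted p 0.00267). The NK arrays lay between CD8T and Mac-1(+) in all 3, with Mac-1(+) values of 671 and 1119 for Npm1, 334 and 381 for Ncl and 206 and 251 for Fbl. The Gimap genes, GTPases of lymphocyte survival, were lower in NK in 6 of 8 and higher in 0, with a median of -1.11, and the count fell to 3 without NK replicate 1 to 3 with a pseudocount at the 5th percentile and to 0 in the test against a log2 difference of 1. Gimap6 had 471 and 517 in the NK arrays, 1233 and 1290.3 in the CD8T arrays and 9.09 and 0.998 in the Mac-1(+) arrays (log2 difference -1.34 ± 0.30, adjusted p 0.00229), and lost its call with that pseudocount (-1.35, adjusted p 0.095).

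Mitosis genes were called higher in NK in 15 of 22 and lower in 0, with a median of 1.42. The 15 fell to 10 without CD8T replicate 1, to 11 without NK replicate 2 and to 4 in the test against a log2 difference of 1. All 15 carried the mark, and NK was called below Mac-1(+) in 22 of 22. Mki67, which encodes the proliferation antigen Ki-67, had 473 and 587 in the NK arrays, 66.9 and 114 in the CD8T arrays and 3757 and 3354 in the Mac-1(+) arrays (log2 difference 2.50 ± 0.39, adjusted p 8.33e-05). Bub1b, a spindle checkpoint kinase, had 163 and 154 in the NK arrays, 6.17 and 2.27 in the CD8T arrays and 531 and 462 in the Mac-1(+) arrays (log2 difference 3.93 ± 0.50, adjusted p 8.26e-06). DNA replication genes were higher in 4 of 23 and lower in 0, with a median of 0.16, beside 9.45% higher over all tested genes. All 4, among them Rrm2 (2.17 ± 0.34), were marked, and 2 were called with the probe sets of a gene averaged. Interferon response genes were higher in 7 of 18 and lower in 0, with a median of 0.58. Rsad2, which encodes viperin, had 785 and 674 in the NK arrays, 99.5 and 239 in the CD8T arrays and 697 and 554 in the Mac-1(+) arrays (log2 difference 2.18 ± 0.33, adjusted p 5.25e-05). Oasl2 had 342 and 186 in the NK arrays, 27.4 and 38.2 in the CD8T arrays and 225 and 243 in the Mac-1(+) arrays (log2 difference 2.73 ± 0.40, adjusted p 4.28e-05). Both were marked, and the count of 7 fell to 2 without NK replicate 1, which was the higher NK array for both genes. With only probe sets that bind 1 transcript by their name, 2 of 11 remaining interferon response genes were higher.

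**Figure D4:**
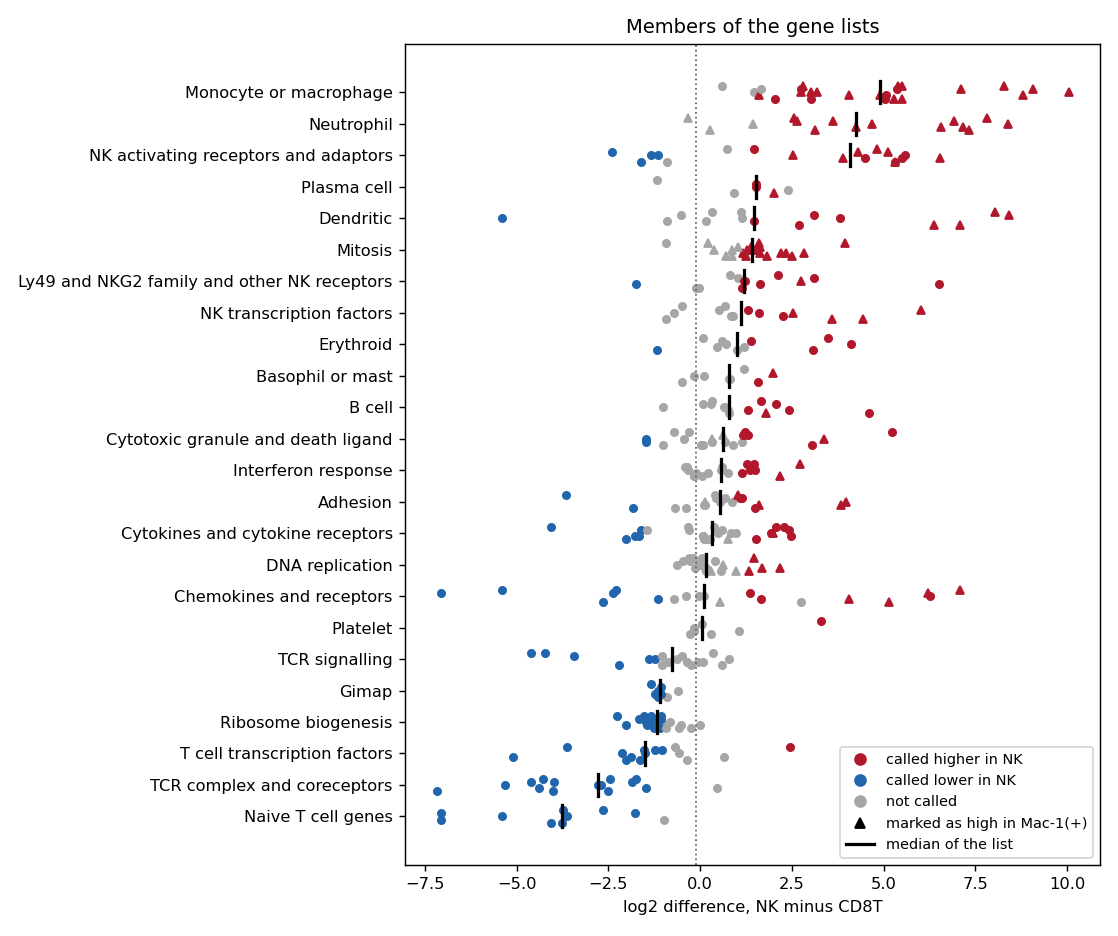
Each point is a tested member of a gene list, at its log2 difference (NK minus CD8T); red points were called higher in NK, blue points lower and grey points not called, triangles mark genes high in Mac-1(+), black bars are list medians and the dotted line is the median of all tested genes, -0.11. The T cell receptor complex and naive T cell lists lie at the bottom left with medians of -2.78 and -3.76. At the top the monocyte or macrophage list lies at 4.89, above the neutrophil list at 4.25 and the NK activating receptors and adaptors at 4.09.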

How the data were processed

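Sorted populations of C57BL/6 mice were measured on 20 Affymetrix Mouse Genome 430 2.0 arrays, 2 per population. The authors deposited linear intensities, 1 per probe set and array. Their software is not given in the sources used here. For each array the trimmed mean (2% left out at each end) was 100. Groups came from the sample titles. From 45101 probe sets, those with 1 gene symbol in the platform annotation (34945) were used, the brightest of each gene was kept, and log2(intensity + 6.75) was taken (25th percentile of all values). A gene was tested when its highest population mean was above the median of all values (14044 genes). limma 3.58.1 (R 4.3.3) fitted all 20 arrays with 1 factor of 10 levels and a variance trend, which gave 10 residual degrees of freedom. Gene names follow a rule: the 12 largest NK-higher differences without the mark, the 10 largest with it and the 15 largest NK-lower ones, among called genes with characterised symbols whose arrays do not overlap, plus members of 24 gene lists (374 of 423 listed genes tested). The comparison and the lists were chosen with earlier results of these data known. Alternatives covered the pseudocount, scaling, dim-gene filter, probe set rule, variance model, the arrays fitted, the replicate block and each array left out. The fit was tested on simulated data. The number of arrays limits the precision.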

Additional observations from a re-analysis of the deposited data

How the results depend on the processing

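Most alternatives left the counts within 1.5 times those reported. Over pseudocounts, scalings, filters on dim genes, rules for probe sets, the 4 arrays alone and the variance model, the NK-higher count ran from 1083 to 1380 and the NK-lower count from 660 to 889. A test against a log2 difference of 1 (treat) called 715 genes, 568 higher and 147 lower, of which 360 higher ones were marked, and 107 list members, 78 higher and 29 lower, with 0 of the ribosome biogenesis and Gimap genes. Marking at the 90th percentile of all values left 439 marked genes (33.1%). Restricted to genes low in both Mac-1(+) arrays, chosen after seeing the data, 349 genes were called, 99 higher and 250 lower, and 56 list members, 23 higher and 33 lower. Leaving out 1 NK or CD8T array gave 1682 to 1946 called genes, 1104 to 1218 higher and 561 to 728 lower, with 639 to 694 marked and 174 to 197 list members called, against 214 with all arrays. Without Mac-1(+) replicate 1, 790 were marked, and without replicate 2, 691. The labels do not say whether the replicate numbers pair the samples. Same-numbered NK and CD8T arrays had a correlation of deviations of -0.04, and 1 of 45 pairs of populations was over 0.1, at 0.21. With 2 arrays per population these correlations cannot tell whether same-numbered arrays share an animal or a day. With the replicate number as a block, 2150 genes were called, 1319 higher and 831 lower. Of the 50 genes named as markers, by rule or as low in Mac-1(+), the call of Iglv1 was lost with only probe sets without shared suffixes (0.55, adjusted p 0.531). That setting tested 39 of the 50 and the 75th percentile filter 49, so Klra8, Gzma and Cd8b1, among others, were not run in each setting. No other of the 50 lost its call where it was tested. Averaging probe sets lowered the size of several differences by over 1.5 times without ending the call, among them Plcg1 (-1.51), Ccr9 (-2.88), St8sia1 (-2.26), Als2cl (-2.60), Trav9d-3 (-3.29), Cd247 (-1.64), Ryr1 (2.53), Syk (3.51), Il10ra (1.04), Tgfbr3 (1.27) and Bub1b (2.52). Averaging the probe sets of a gene turned the sign of Pes1, a ribosome biogenesis gene, with 0.16 against the reported -1.09. The causes of these changes were not tested. With 2 arrays per population, calls near a log2 difference of 1 are the least certain.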

Other observations

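Single genes differed widely between the 2 arrays of 1 population, and the genes named here were chosen after their values were seen. In the NK arrays, the plasma cell gene Jchain, which encodes the joining chain of antibodies, had 15.3 and 506, the light chain segment Igkv8-30 had 83.3 and 297 and the light chain segment Iglv1 had 769.5 and 64.4. Replicate 2 was thus the higher for Jchain and Igkv8-30 and replicate 1 for Iglv1. In the CD8T arrays, replicate 2 was the higher for several genes of cytotoxic lymphocytes, with 441 and 965 for Klre1, 209 and 392 for Klrk1, 90.3 and 222 for Gzmk and 348 and 701 for Cxcr6, and replicate 1 was the higher for the naive T cell genes Ccr7 (1824 and 1125) and Igfbp4 (1768 and 913).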
